A study of Bos taurus and Sus scrofa with 6 samples.

Results

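The platelet-derived growth factor (PDGF) genes described here were the ligands PDGFA and PDGFB and the receptors PDGFRA and PDGFRB. They were chosen by gene symbol, and these 4 genes were listed in both gene tables, which held 19994 genes for cattle and 22694 genes for pig. The testes came by castration from 3 Holstein cattle (age 4.5 months) and 3 pigs of mixed breed (age 3 months), all before puberty, and were brought to single-cell suspensions of the parenchyma. About 8000 live cells per animal, unsorted and labelled as total testicular cells, were loaded for droplet-based single-cell RNA-sequencing (scRNA-seq), and the labels named no allele or agent given to any of the animals. The sample titles give cattle 2 and cattle 3 a shared testis number, and likewise pig 2 and pig 3, beside tags that differ, and the study counted 3 animals per species. Each library was therefore counted as 1 animal, and the p-values measure the spread between these libraries.

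PDGF chains pair into secreted dimers that bring receptor tyrosine kinases of the PDGFRA and PDGFRB type together on the surface of a neighbouring cell. The A chain binds PDGFRA, whereas the B chain binds both receptors, and the activated kinases recruit adaptor proteins that drive division and migration of mesenchymal cells. In the testis the pathway is known for signalling from the epithelium of the seminiferous cords to the interstitium, where it takes part in the formation of Leydig cells and peritubular myoid cells, and in vessels endothelial PDGFB is known to recruit pericytes.

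After filtering, 17482 cattle cells (3444, 8138 and 5900 in cattle 1, 2 and 3) and 9206 pig cells (3162, 3808 and 2236 in pigs 1, 2 and 3) were kept. The deposited matrices held between 5805223 and 53325608 unique molecular identifiers (UMIs, each a counted transcript molecule) per cattle library and between 6245189 and 40099873 per pig library, so that cattle 1 and pig 1 were the shallowest. Cells were clustered within a species, and a cluster was called "-like" for a cell type from fixed markers. Stromal-like, myoid-like and stromal/myoid-like cells were grouped as mesenchymal. No pig cluster was named myoid-like, so that the pig class held stromal-like and stromal/myoid-like cells alone and differs in makeup from the cattle class. All 5 Leydig markers in the cattle table, and all 4 in the pig table, were highest in the Leydig-like cells, and the same held for 9 of 9 germ cell markers in cattle and 7 of 8 in pig. For Sertoli-like cells 6 of 7 markers in cattle and 4 of 7 in pig were highest in the named cells. SHBG was at 0 in the pig Sertoli-like cells. For endothelial-like cells the counts were 5 of 6 in cattle and 7 of 7 in pig, and for lymphocyte-like cells 6 of 8 and 7 of 8. The names were set from these same markers, so that the counts describe the clusters and do not test the names. Most mesenchymal clusters came mainly from 1 library, and pig 1 contributed only 10 mesenchymal and 5 endothelial-like cells, so that the mesenchymal and endothelial-like values of pig rest on pigs 2 and 3. Between 8 and 61 cell barcodes were shared by any pair of libraries, beside 9.59 and 65.1 expected by chance in these 2 pairs. Levels are given as CPM, the UMIs of a gene in all cells of a type of an animal scaled to a common total, for sums of at least 10 cells, and since the assay counts transcript ends without a length scale, levels of a gene were compared between cell types and not between genes.

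The sequences before the pig genes for PDGFA, PDGFRA and PDGFRB are shown because both receptors were highest in mesenchymal cells of pig, PDGFRA by mean in stromal/myoid-like and PDGFRB in stromal-like cells, while PDGFA was highest in Sertoli-like cells. They are the 250 bases upstream of the RefSeq gene start in Sscrofa11.1, 5′ to 3′ on the strand of the gene, with matches of either strand to the GC box GGGCGG and the CCAAT box CCAAT in capitals. The motifs do not overlap.
PDGFA, chr3:322968-323217, minus strand: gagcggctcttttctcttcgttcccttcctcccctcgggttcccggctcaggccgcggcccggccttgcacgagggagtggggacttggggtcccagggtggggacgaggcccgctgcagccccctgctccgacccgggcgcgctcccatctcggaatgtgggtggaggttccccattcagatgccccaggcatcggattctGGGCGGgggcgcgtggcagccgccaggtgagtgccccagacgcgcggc
PDGFRA, chr8:40966318-40966567, plus strand: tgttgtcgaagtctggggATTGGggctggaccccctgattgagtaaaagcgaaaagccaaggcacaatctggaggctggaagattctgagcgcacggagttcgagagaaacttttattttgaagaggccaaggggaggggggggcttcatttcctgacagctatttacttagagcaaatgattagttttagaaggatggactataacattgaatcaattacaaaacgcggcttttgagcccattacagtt
PDGFRB, chr2:151192819-151193068, minus strand: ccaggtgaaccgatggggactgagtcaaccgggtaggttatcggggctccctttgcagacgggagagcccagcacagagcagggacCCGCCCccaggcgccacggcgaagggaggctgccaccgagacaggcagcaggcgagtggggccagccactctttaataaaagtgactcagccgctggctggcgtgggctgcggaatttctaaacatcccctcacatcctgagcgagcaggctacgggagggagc
The GC content was 71.6% for PDGFA, 45.6% for PDGFRA and 64% for PDGFRB. PDGFA held 1 GC box that began 48 bases before the gene start and PDGFRB held 1 that began 164 bases before it, whereas PDGFRA held 1 CCAAT box. No window held the TATA box letters TATAAA. Of 19569 pig windows of this length, 45.9% held the GC box, 31.9% the CCAAT box and 9.77% the TATA box letters. A match is a description of letters and not a binding site.

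PDGFA, the ligand that binds PDGFRA, had its highest mean level in Sertoli-like cells of both species among the cells kept. These are the somatic cells that line the cords and nurse the germ cells. In cattle the Sertoli-like level of PDGFA was 45.5 CPM in cattle 1, 37.9 in cattle 2 and 27.4 in cattle 3, from 30, 234 and 257 UMIs. In pig the Sertoli-like level of PDGFA was 67.2 CPM in pig 1, 93.6 in pig 2 and 41.5 in pig 3, from 73, 966 and 46 UMIs. The mean was 36.9 ± 9.12 CPM in cattle and 67.4 ± 26.1 CPM in pig (SD, n = 3 each). Within each of the pigs the Sertoli-like sum was the highest of all types. In cattle the same held for cattle 3, and higher values in cattle 1 and 2 rested on 1 and 2 UMIs, in 26 endothelial-like and 12 plasmacytoid dendritic-like cells. The pig order depended on the depth filter. With a minimum of 500 UMIs per cell as the only one, 5909, 18714 and 8158 cells of pigs 1, 2 and 3 were kept. PDGFA was then at 43.8 to 91.5 CPM in Sertoli-like and at 3.57 to 211 CPM in endothelial-like cells of the 3 pigs. The endothelial-like mean was 80.9 ± 113 CPM (SD, n = 3), from 144 UMIs in 3613 cells, not split by animal here. The 154 pericyte-like cells of pigs 2 and 3 held PDGFA at 86.9 and 98.1 CPM, from 28 UMIs. Against the mean of all other cell types, PDGFA was 3.83 log2 units higher in cattle (SE 0.36, adjusted p = 2.84e-10) and 3.49 log2 units higher in pig (SE 0.43, adjusted p = 4.74e-07) by the quasi-likelihood F test of edgeR, with p adjusted over all genes by the Benjamini-Hochberg method. This mean was taken over log2 levels, here and in the contrasts below, so that types near 0 lower it. Among all genes tested 30.6% were called in cattle and 23.3% in pig in this contrast. Differences between the species, here and below, came from a joint fit of both species. Its reference was the types named in both, with the mesenchymal types weighted as a single type. These differences therefore need not equal the gap between the contrasts of the species. The difference between the species was -0.29 log2 units (adjusted p = 1), and its sign changed with the processing.

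The share of Sertoli-like cells with a PDGFA UMI was 5.94%, 9.28% and 15.9% in cattle 1, 2 and 3, at median depths of 1228, 2699 and 6272.5 UMIs per cell, and was thus highest in the deepest library. Cells of at least 500 UMIs were thinned to 500 UMIs, and shallower ones were left out, among them 24 Sertoli-like cells of cattle 1. PDGFA was then detected in 1.65% ± 0.22 of cattle Sertoli-like cells and in 3.63% ± 1.01 of those of pig (SD, n = 3 each). At the same depth the PDGFA share in cattle was 1.39% ± 2.41 in endothelial-like, 1.02% ± 0.94 in germ-like and 0.04% in myoid-like cells. The Sertoli-like mean thus lay within 1 SD of the endothelial-like and of the germ-like mean, by the SD of those types. In pig the next highest share was 0.89% ± 0.21 (SD, n = 2), in stromal-like cells, and it was 0.13% in Leydig-like cells.

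Germ-like cells were the second cattle type with PDGFA. The level there was 41.0 CPM in cattle 1, 37.5 in cattle 2 and 21.2 in cattle 3, from 12, 49 and 79 UMIs, a range that overlapped that of the Sertoli-like cells. The Sertoli-like level was 0.96 log2 units above the germ-like level in the fit (adjusted p = 0.0948), and missed the threshold. Since the sums of an animal are paired, the steps were also fitted with the animal as a block, where this one was 0.96 log2 units and passed (adjusted p = 4.60e-04). The fits apply normalization factors (TMM) that the CPM do not hold. They were 0.89, 0.75 and 0.79 for Sertoli-like and 1.47, 1.37 and 1.29 for germ-like sums of cattle 1, 2 and 3. The mean CPM were 36.9 and 33.2, and the step without these factors was not fitted. In cattle germ-like cells PDGFA was 2.75 log2 units above the mean of other types (SE 0.41, adjusted p = 7.61e-07), in a contrast where 58% of all genes were called. The summed Sertoli marker list was 133 to 287 CPM in cattle germ-like cells and 3108 to 5968 CPM in Sertoli-like cells. Barcodes of at most 50 UMIs, which hold mainly free RNA, carried PDGFA at 14.8, 12.8 and 14.4 CPM in cattle 1, 2 and 3, below the germ-like level of the same animal in each. The pig matrices held no barcode of at most 50 UMIs, so that pig levels are given without such a background. At a mean of 6.70 CPM, cattle lymphocyte-like PDGFA was below the Sertoli- and germ-like means of 36.9 and 33.2 CPM. It was still called above the mean log2 level of other types (1.75 log2 units, SE 0.48, adjusted p = 0.00675). This call was lost without cattle 2 (2.22, adjusted p = 0.161), without cattle 3 (1.28, adjusted p = 0.387), with library size alone (adjusted p = 0.0536), by DESeq2's Wald test (adjusted p = 0.168) and at a clustering resolution of 2 (adjusted p = 0.0939). The lymphocyte-like level, at 0, 10.7 and 9.44 CPM, lay below that of the barcodes of at most 50 UMIs in each of the cattle, and the free RNA inside called cells was not measured. In pig germ-like cells PDGFA was at 7.31, 14.5 and 3.19 CPM in pigs 1, 2 and 3, and did not pass the test against other types (-0.54 log2 units, adjusted p = 0.485, with 50% of all genes called). The germ-like difference was 2.86 log2 units smaller in pig than in cattle (adjusted p = 0.00224, with 17.6% of all genes called). The paper reports early prophase spermatocytes beside spermatogonia in its pig tissue, so that germ-like cells may differ in stage between the species. The part of stage in this difference was not tested.

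In mesenchymal cells PDGFA differed between the species. Over all mesenchymal cells of an animal the level was 5.74, 0.47 and 1.40 CPM in cattle 1, 2 and 3, on 28 UMIs in all. In pig it was 34.2 CPM in pig 2 and 4.25 CPM in pig 3, so that pig 3 lay within the cattle range and pig 2 above it. The contrast was -2.62 log2 units in cattle (SE 0.58, adjusted p = 8.44e-04, with 24.7% of all genes called) and 1.2 in pig (SE 0.57, adjusted p = 0.186, with 13.9% of all genes called). In the joint fit, with its own reference, the difference between the species was 3.14 log2 units (adjusted p = 0.019, with 2.56% of all genes called). The cattle call was lost without cattle 2 (-2.83 log2 units, adjusted p = 1) and without cattle 3 (-2.35 log2 units, adjusted p = 0.0514). The difference between the species missed the threshold without cattle 2 (3.40 log2 units, adjusted p = 1), cattle 3 (2.96, adjusted p = 0.225) or pig 2 (2.22, adjusted p = 0.436). It also missed the threshold with a minimum of 500 UMIs (2.72, adjusted p = 0.135), at resolutions 0.5 and 2 (adjusted p = 0.0824 and 0.0701) and when markers were set against all other cells to name clusters (2.37, adjusted p = 0.0930). In pig 2, the summed Sertoli marker list was 1698 CPM in stromal/myoid-like cells and 939 CPM in stromal-like cells, beside 4076 CPM in its Sertoli-like cells. The part of this list's signal in the pig 2 value of PDGFA was not tested. Cattle Leydig-like cells, the steroid-producing cells of the interstitium, held 2 PDGFA UMIs in 1844 cells (-2.69 log2 units, adjusted p = 0.0342, with 18% of all genes called), and without any one of the cattle this call was lost.

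**Figure D1:**
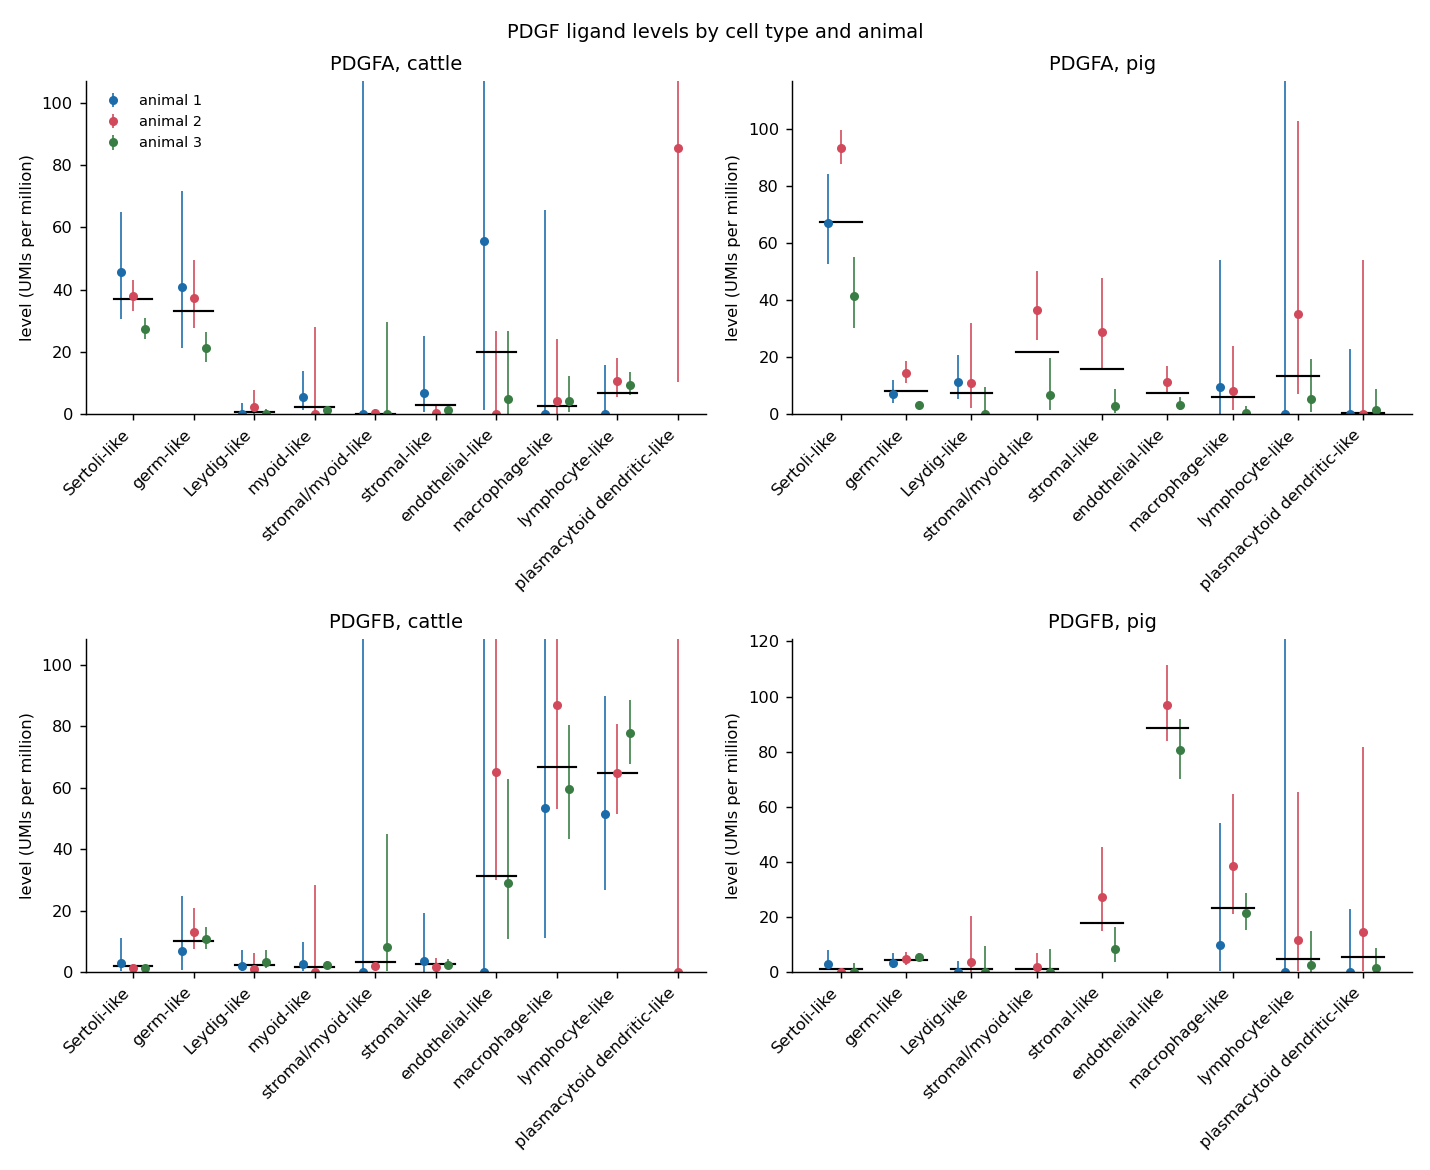
Levels of the ligands PDGFA and PDGFB in CPM by cell type and animal. Each point is the sum over at least 10 cells of 1 animal, bars are exact 95% Poisson intervals for counting error only and are cut off at the top of the axis, and the black line is the mean over animals. PDGFA stands highest in Sertoli-like cells of pig (41.5 to 93.6 CPM), and PDGFB in lymphocyte- and macrophage-like cells of cattle and in endothelial-like cells of pig.

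PDGFB, the ligand that binds both receptors, had a different highest cell type in each species. In pig it was highest in endothelial-like cells, the lining of the vessels, at 96.8 CPM in pig 2 and 80.5 CPM in pig 3, from 196 and 220 UMIs in 345 and 329 cells. Both animals lay above every other pig type, the nearest being macrophage-like cells at 9.71, 38.5 and 21.3 CPM in pigs 1, 2 and 3. This separation depended on the depth filter. With a minimum of 500 UMIs per cell as the only one, PDGFB was at 0 to 76.0 CPM in endothelial-like cells of the 3 pigs. The mean there was 44.9 CPM, and an animal without a PDGFB UMI in these cells set the low end. Pericyte-like cells held 24.5 to 48.9 CPM there, from 12 UMIs, so that the ranges overlapped. A PDGFB UMI was found in 37.7% and 42.2% of pig endothelial-like cells, and after thinning to 500 UMIs in 5.03% ± 1.09 (SD, n = 2). The next highest thinned share was 1.75% ± 1.74 (SD, n = 2), in stromal-like cells, and it was 0.03% in pig Sertoli-like cells. In pig endothelial-like cells PDGFB was 4.91 log2 units above the mean of other types (SE 0.38, adjusted p = 1.35e-11, with 16.5% of all genes called) and 1.61 log2 units above macrophage-like cells (adjusted p = 0.0398, with 14.6% of all genes called).

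In cattle PDGFB was highest in lymphocyte- and macrophage-like cells. Lymphocyte-like cells held 51.4, 64.8 and 77.6 CPM in cattle 1, 2 and 3, from 12, 79 and 222 UMIs. Macrophage-like cells held 53.3, 86.8 and 59.7 CPM, from 3, 20 and 43 UMIs. These ranges overlapped and the 2 types did not differ beyond their spread (-0.40 log2 units for macrophage- over lymphocyte-like cells, adjusted p = 0.644). Both lay above the level in barcodes of at most 50 UMIs, which was 13.8, 8.53 and 12 CPM. In lymphocyte-like cells PDGFB was 3.91 log2 units above other types (SE 0.25, adjusted p = 8.33e-15, with 20.2% of all genes called), and in macrophage-like cells 3.46 log2 units above (SE 0.31, adjusted p = 8.97e-11, with 13.7% of all genes called).

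Cattle endothelial-like cells were few, and PDGFB was found there at 0, 65.2 and 28.9 CPM in cattle 1, 2 and 3, on 0, 9 and 6 UMIs in 26, 64 and 44 cells. These cells of cattle 1 held 17957 UMIs of all genes, so that 1 UMI there is 55.7 CPM and its 0 does not place it below the other animals. The range overlapped that of lymphocyte-like cells, which were 1.40 log2 units higher (adjusted p = 0.0503, and 1.5 with adjusted p = 0.00296 with the animal as a block). The contrast was 2.33 log2 units (SE 0.47, adjusted p = 8.53e-04, with 6% of all genes called), and without cattle 2 it was 1.43 log2 units and missed the threshold (adjusted p = 0.537). The endothelial-like difference was 3.38 log2 units larger in pig than in cattle (adjusted p = 7.09e-04, with 2.56% of all genes called), and without cattle 3 it was 2.90 log2 units and missed the threshold (adjusted p = 0.0983).

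Pig lymphocyte-like cells did not carry PDGFB at the cattle level, with 2 UMIs in 111 cells and a contrast of -0.22 log2 units (adjusted p = 1, with 3.24% of all genes called). The lymphocyte-like difference was 3.92 log2 units smaller in pig (adjusted p = 0.0235, with 1.91% of all genes called), and it missed the threshold without cattle 2 (adjusted p = 0.0742), cattle 3 (adjusted p = 0.137), pig 2 (adjusted p = 1) or pig 3 (adjusted p = 0.339), at -3.98 to -3.44 log2 units, or at a clustering resolution of 2 (-3.73, adjusted p = 0.0552). These 111 pig cells also carried the stromal marker list at 607 to 2578 CPM and the Sertoli list at 216 to 2044 CPM, and the part of other cell types in their PDGFB value was not tested. In pig macrophage-like cells PDGFB was 3.10 log2 units above other types (SE 0.49, adjusted p = 1.44e-05, with 15.1% of all genes called).

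PDGFB was low in the cells of the cords. In cattle Sertoli-like cells it was 3.04, 1.46 and 1.38 CPM, with a contrast of -2.28 log2 units (adjusted p = 3.14e-05), and in pig Sertoli-like cells it was 2.76, 0.19 and 0 CPM, with a contrast of -3.38 log2 units (adjusted p = 0.0027) that fell short without pig 2 (-0.65 log2 units, adjusted p = 1). In cattle germ-like cells it was 6.83, 13 and 10.7 CPM, a range that overlapped that of the barcodes of at most 50 UMIs and lay above the barcodes of the same animal in cattle 2 alone. In mesenchymal cells of cattle it was 2.87, 1.72 and 2.43 CPM (-2.67 log2 units, adjusted p = 2.90e-08). In pig, stromal-like cells held PDGFB at 27.1 CPM in pig 2 and 8.24 CPM in pig 3, from 14 and 8 UMIs (1.91 log2 units, adjusted p = 0.0358, with 9.12% of all genes called). That call was lost without pig 2 (adjusted p = 0.345) and without doublet removal (0.41 log2 units, adjusted p = 0.869), and the value was -1.09 log2 units with a minimum of 500 UMIs per cell as the only depth filter.

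PDGFRA, the receptor for both chains, was highest in the mesenchymal cells of both species. In cattle 6364 of 17482 cells held a PDGFRA UMI. Cattle myoid-like cells, the contractile cells around the cords, held 334, 917 and 840 CPM in cattle 1, 2 and 3. Stromal/myoid-like cells held 219, 880 and 710 CPM, in 22, 2400 and 29 cells, and the value of cattle 1 came from 5 UMIs. Stromal-like cells held 160, 472 and 501 CPM. Cattle 1 was the lowest of the animals in each of these types, and myoid-like cells were the highest type in each animal. The order myoid-, stromal/myoid-, stromal-like was not resolved, since the steps of 0.14 and 0.79 log2 units had an adjusted p of 1 and 0.842. With the animal as a block the second step was 0.82 log2 units and passed (adjusted p = 0.0208). Over all mesenchymal cells PDGFRA was 3.56 log2 units above other types (SE 0.23, adjusted p = 3.56e-14).

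Leydig-like cells were next in cattle, with PDGFRA at 65.7, 167 and 108 CPM in cattle 1, 2 and 3. The ranges of stromal- and Leydig-like cells overlapped, and the step of 1.24 log2 units missed the threshold (adjusted p = 0.0612) but passed with the animal as a block (1.16 log2 units, adjusted p = 1.69e-05). Against the mean log2 level of other types, cattle Leydig-like PDGFRA was 0.64 log2 units higher (adjusted p = 0.201). With the animal as a block this value was 0.76 (SE 0.19, adjusted p = 5.57e-04). Types with little PDGFRA lower that mean, and the Leydig-like mean of 114 CPM lay below that of each mesenchymal type. Leydig-like cells in turn lay above the endothelial-like cells at 55.7, 43.5 and 62.5 CPM without overlap (1.77 log2 units, adjusted p = 0.0478, with 10.6% of all genes called). In Sertoli-like cells PDGFRA was 13.7, 23.6 and 28.7 CPM (-2.07 log2 units, adjusted p = 1.39e-04), and in germ-like cells it was 30.8, 26.0 and 27.3 CPM (-2.66 log2 units, adjusted p = 5.08e-06). Barcodes of at most 50 UMIs carried PDGFRA at 46.3, 214 and 256 CPM in cattle 1, 2 and 3, above the Sertoli-, germ- and lymphocyte-like levels of each animal. In cattle 2 and 3 the Leydig-like level was also below that of these barcodes, whereas the myoid-, stromal/myoid- and stromal-like levels were above it in each of the animals. The part of free RNA in the PDGFRA of the lower types was not tested.

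After thinning to 500 UMIs, PDGFRA was detected in 28.7% ± 11.11 of cattle myoid-like cells, 20.9% ± 13.5 of stromal/myoid-like cells and 17.3% ± 7.25 of stromal-like cells (SD, n = 3 each). The thinned share was 1.22% ± 0.63 in Sertoli-like cells and 4.82% ± 1.02 in Leydig-like cells. Unthinned, 23.3%, 76.1% and 96.4% of myoid-like cells held a PDGFRA UMI in cattle 1, 2 and 3, at median depths of 753, 1419 and 5108 UMIs.

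In pig PDGFRA was sparse, with 81 UMIs in 9206 cells, and its mean level was highest in stromal/myoid-like cells. Whether the pig annotation covers the transcript end of PDGFRA, where the assay counts, was not tested. Stromal/myoid-like cells held 17.9 CPM in pig 2 and 29.4 CPM in pig 3, from 19 and 13 UMIs. Stromal-like cells held 5.81 and 15.4 CPM, from 3 and 15 UMIs, and Leydig-like cells held 9.05, 3.68 and 0 CPM in pigs 1, 2 and 3. No other pig type exceeded 5.41 CPM. The step of 1.04 log2 units from stromal/myoid- to stromal-like cells missed the threshold (adjusted p = 0.956), and with a minimum of 500 UMIs per cell the order of the means turned, with 7.32 to 44.6 CPM in stromal-like and 0 to 28.8 CPM in stromal/myoid-like cells of the 3 pigs. The mesenchymal contrast was 3.67 log2 units in pig (SE 0.48, adjusted p = 6.92e-07), but 1.44 (adjusted p = 1) with a minimum of 500 UMIs per cell as the only depth filter. Under that filter the class also held 154 pericyte-like cells without a PDGFRA UMI, and their part in the change was not tested. The difference between the species in this contrast was -0.07 log2 units (adjusted p = 1).

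**Figure D2:**
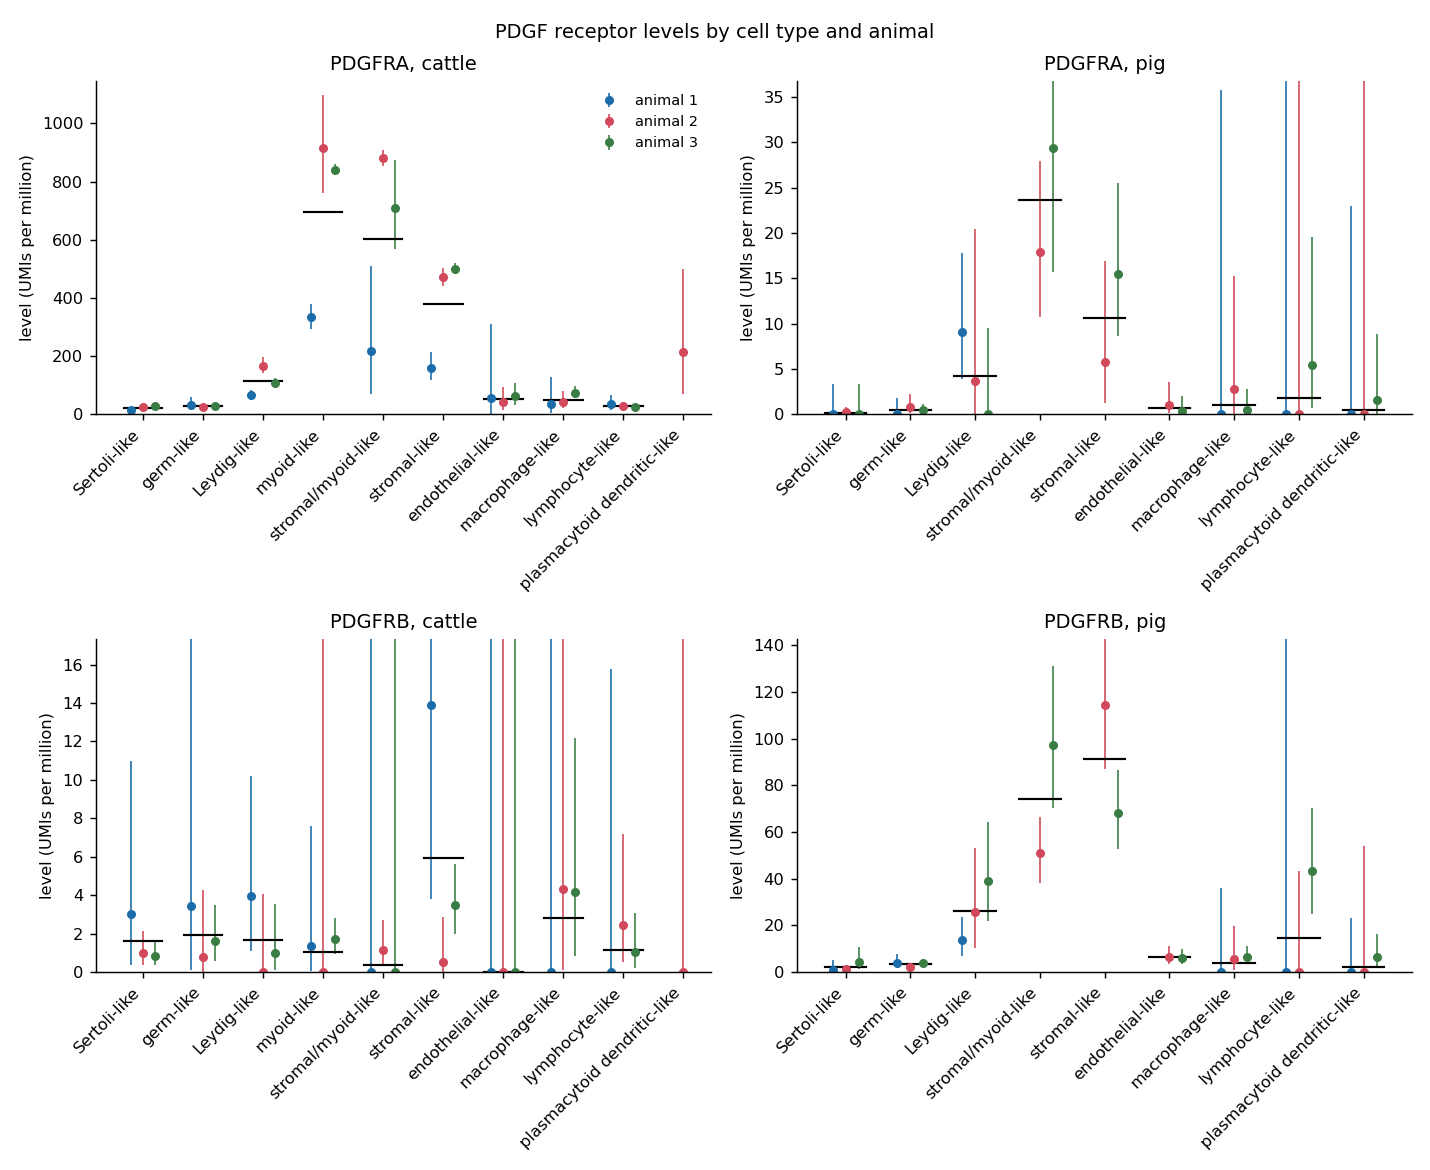
Levels of the receptors PDGFRA and PDGFRB in CPM by cell type and animal. Each point is the sum over at least 10 cells of 1 animal, bars are exact 95% Poisson intervals for counting error only and are cut off at the top of the axis, and the black line is the mean over animals. PDGFRA reaches 334 to 917 CPM in cattle myoid-like cells, and PDGFRB reaches 50.9 to 114 CPM in pig stromal- and stromal/myoid-like cells while remaining near 0 in cattle.

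PDGFRB, the receptor for the B chain that is known from pericytes and vascular smooth muscle, was highest in mesenchymal cells of pig and near 0 in cattle. Whether the cattle annotation covers the transcript end of PDGFRB, where the assay counts, was not tested, so that a low level and uncounted reads cannot be told apart in cattle. Pig stromal-like cells held 114 CPM in pig 2 and 67.9 CPM in pig 3, from 59 and 66 UMIs. Pig stromal/myoid-like cells held 50.9 and 97.3 CPM, from 54 and 43 UMIs. The ranges of the 2 types overlapped, and each animal lay above every other pig type. The mesenchymal contrast was 3.39 log2 units (SE 0.30, adjusted p = 5.08e-10).

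None of the 4 genes was called in pig Leydig-like cells, where 14% of all genes were, although PDGFRB was 1.27 log2 units above other types there with the animal as a block (SE 0.39, adjusted p = 0.0121), beside 1.09 without (adjusted p = 0.101). These cells held PDGFRB at 13.6, 25.7 and 38.9 CPM in pigs 1, 2 and 3, below the stromal/myoid-like cells without overlap, but the step of 1.52 log2 units missed the threshold (adjusted p = 0.0895) and was 1.30 with the animal as a block (adjusted p = 0.0451). A Leydig-like cluster with DCN, a stromal gene, at 2739 CPM held PDGFRB at 50.9 CPM and PDGFRA at 42.4 CPM. These levels rest on few UMIs, since all 1176 pig Leydig-like cells together held 34 of PDGFRB and 9 of PDGFRA. Pig lymphocyte-like cells held 16 PDGFRB UMIs, all in pig 3, where the stromal list stood at 2578 CPM. Endothelial-like cells held 6.42 and 6.22 CPM in pigs 2 and 3. In Sertoli-like cells PDGFRB was 0.92, 1.45 and 4.51 CPM (-2.81 log2 units, adjusted p = 1.99e-04), and in germ-like cells 3.90, 2.04 and 3.97 CPM (-2.36 log2 units, adjusted p = 5.69e-05). Without pig 3 these contrasts of PDGFRB were -1.29 and -0.65 log2 units and neither passed (adjusted p = 1 for both).

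Whether cells like pericytes, the mural cells of small vessels, were named depended on the processing. No pig cluster met the rule for pericyte-like cells with the settings used here, whereas 16 and 8 cells of pigs 2 and 3 met it at a clustering resolution of 2, and 7, 27 and 90 cells of pigs 1, 2 and 3 when markers were set against all other cells. With a minimum of 500 UMIs per cell as the only depth filter, a pig cluster of 154 cells of pigs 2 and 3 met it with all 7 markers of the list, which does not hold PDGFRB, in a clustering that left out the PDGF genes. PDGFRB was at 641 and 654 CPM in the pericyte-like cells of these animals, from 198 UMIs in 105 of the cells. The next type, stromal/myoid-like cells, held PDGFRB at 80.9 to 299 CPM over the 3 pigs under the same filter, below the pericyte-like cells without overlap. The pericyte-like cells held no PDGFRA UMI.

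In cattle PDGFRB gave 85 UMIs in 17482 cells. Over all mesenchymal cells its level was 4.78, 0.94 and 2.28 CPM in cattle 1, 2 and 3, and the contrast of 0.75 log2 units did not pass the test (SE 0.89, adjusted p = 0.695) and was -0.43 without cattle 2. None of the 8 steps between neighbours in the cattle order of PDGFRB passed the threshold, with or without the animal as a block. No cattle endothelial-like cell held a PDGFRB UMI, and 0 of 64 cells in cattle 2 allows a share of cells with a UMI of up to 4.69%. The Sertoli-like contrast of PDGFRB was 3.07 log2 units lower in pig than in cattle (adjusted p = 0.0417, with 9.12% of all genes called). That call was lost without cattle 2 (-3.40 log2 units, adjusted p = 0.0950), cattle 3 (-3.33, adjusted p = 0.160), pig 1 (-2.79, adjusted p = 0.121), pig 2 (-2.48, adjusted p = 0.285) or pig 3 (-2.01, adjusted p = 1), and was kept without cattle 1. It was also lost by DESeq2's Wald test (-1.78, adjusted p = 0.326), with DESeq2 size factors (-2.74, adjusted p = 0.0938), library size alone (-2.86, adjusted p = 0.0751), a minimum of 500 UMIs (-1.29, adjusted p = 0.412), no doublet removal (-2.68, adjusted p = 0.0845), resolution 0.5 (-2.62, adjusted p = 0.0856) and naming against all other cells (-2.71, adjusted p = 0.0975). The mesenchymal difference was 2.32 log2 units (adjusted p = 1). It was 3.36 log2 units by DESeq2's Wald test (adjusted p = 0.00224) and 4.51 with a minimum of 500 UMIs per cell (adjusted p = 3.42e-04), where the pericyte-like cells of pig entered the mesenchymal class.

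Cells with both receptors were compared with each receptor alone, with the cells of all animals of a species pooled. In cattle mesenchymal cells 32 of the 42 cells with a PDGFRB UMI also held PDGFRA (76.2%), beside 65.4% of all 8139 mesenchymal cells. In pig mesenchymal cells 12 of the 46 cells with a PDGFRA UMI also held PDGFRB (26.1%), beside 25.2% of all 726. Ligand and receptor were also set against each other within a class, without matching cells for depth. In cattle Sertoli-like cells 58 of the 461 cells with a PDGFA UMI held PDGFRA (12.6%, beside 8.81% of all 4201), and in cattle germ-like cells 34 of 114 did (29.8%, beside 22.2% of all 517). PDGFRA was also held by 13 of the 58 cattle macrophage-like cells with PDGFB (22.4%, beside 11.9% of all 405) and by 37 of the 46 cattle mesenchymal cells with PDGFB (80.4%, beside 65.4%). All 13 of these macrophage-like cells were of cattle 3. In pig endothelial-like cells 10 of the 269 cells with PDGFB held PDGFRB (3.72%, beside 2.65% of all 679). The pooled shares mix libraries of unlike depth. Of the PDGFRB UMIs in cattle mesenchymal cells 5, 6 and 31 came from cattle 1, 2 and 3. In cattle 3, 14 of 15 myoid-like cells with PDGFRB held PDGFRA, beside 1622 of all 1683, and 13 of 16 stromal-like cells did, beside 959 of 1219. In cattle 2 it was 4 of 5 stromal/myoid-like cells, beside 1809 of 2400, and 1 of 1 stromal-like, beside 589 of 1363. In cattle 1 it was 0 of 1 myoid-like, beside 216 of 927, and 0 of 4 stromal-like, beside 44 of 425. Among Sertoli-like cells with PDGFA, 0 of 30, 12 of 220 and 46 of 211 held PDGFRA in cattle 1, 2 and 3. Beside these, 9 of all 505, 135 of 2370 and 226 of 1326 did. The part of the animal in the pooled shares was not tested.

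**Figure D3:**
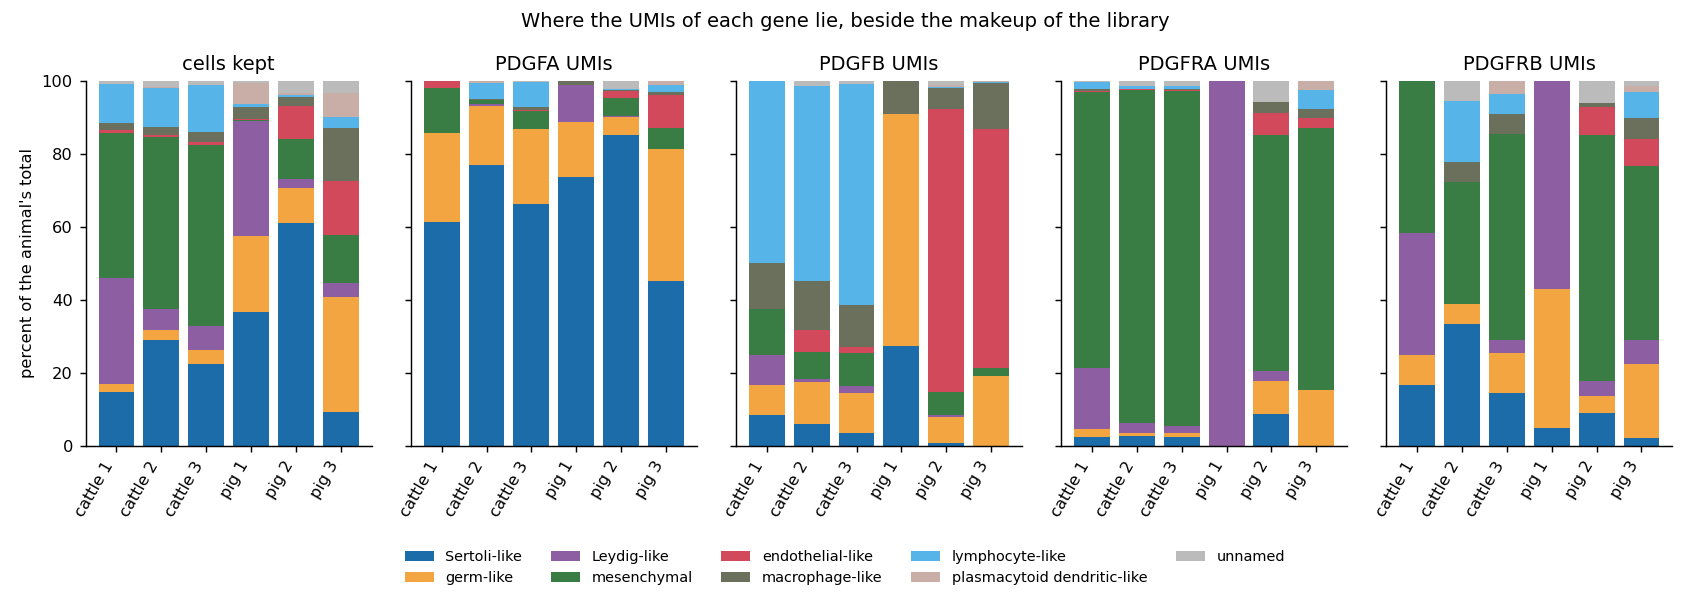
Stacked bars give the percent of an animal's kept cells (left) and of its PDGFA, PDGFB, PDGFRA and PDGFRB UMIs in each cell class, 1 bar per animal. Sertoli-like cells hold a mean of 68.2% of the PDGFA UMIs in cattle and 68.0% in pig, and mesenchymal cells 86.2% of the PDGFRA UMIs in cattle.

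The share of all UMIs of a gene that lay in a class combines its level with the number and depth of the cells. Sertoli-like cells held 68.2% ± 8.03 of PDGFA UMIs in cattle, where they were 22.1% of the cells, and 68.0% ± 20.6 in pig, where they were 35.8% of the cells (SD, n = 3 each). Cattle germ-like cells, 2.91% of the cells, held 20.3% ± 4.19 of PDGFA UMIs. Cattle lymphocyte-like cells, 11.4% of the cells, held 54.6% ± 5.35 of PDGFB UMIs, and macrophage-like cells held 12.6% ± 0.90. Mesenchymal cells, 45.6% of the cattle cells, held 86.2% ± 9.25 of PDGFRA UMIs but 43.8% ± 11.7 of PDGFRB UMIs. In cattle the ligand PDGFA and the receptor PDGFRA thus lay mostly in different classes.

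**Figure D4:**
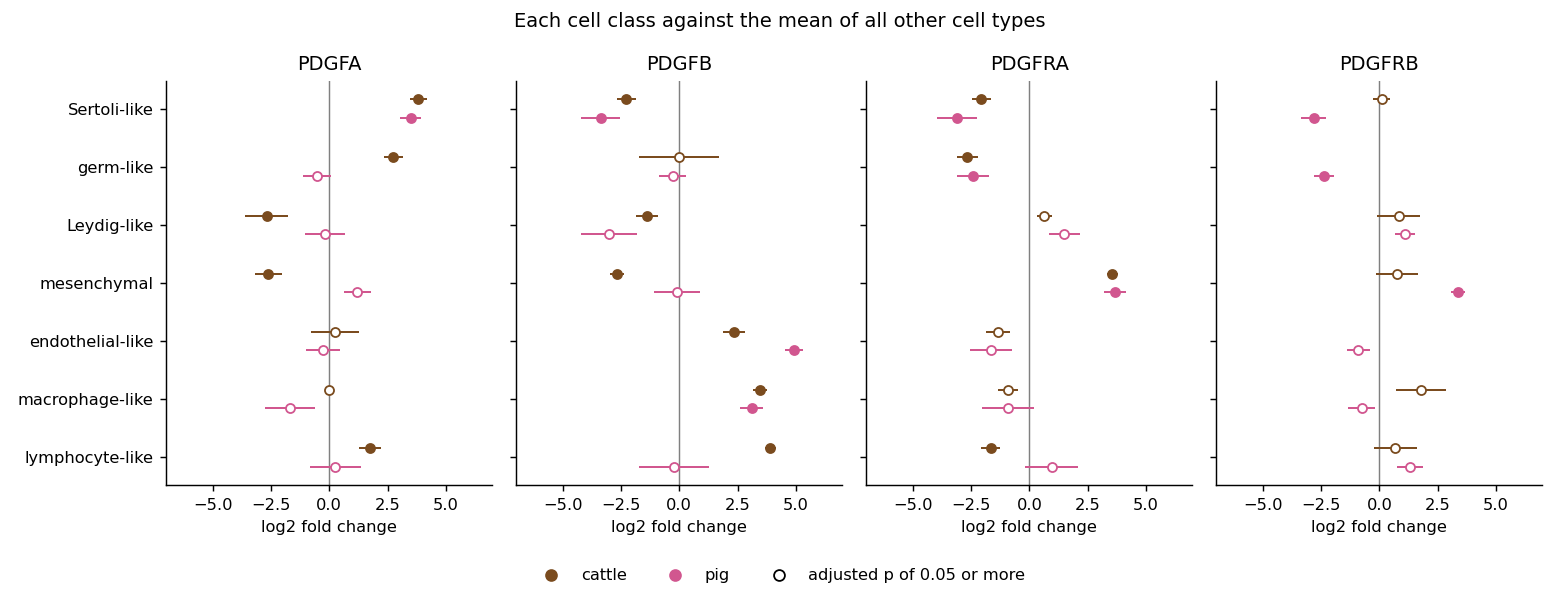
Log2 fold change of the 4 genes in each cell class against the mean log2 level of all other cell types, for cattle and pig. Bars are 1 standard error derived from the F statistic, which is not reliable for values near 0, open points have an adjusted p of 0.05 or more, and 2 PDGFRB points of cattle (germ- and endothelial-like) with a standard error over 2 are left out of the 56. PDGFA in Sertoli-like cells, PDGFB in macrophage-like cells and PDGFRA in mesenchymal cells are called in both species.

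Among the 28 differences between the species that were tested for the 4 genes across 7 cell classes, 5 passed the threshold and 7 had an unadjusted p under 0.05. The share of all genes called in these 7 contrasts ran from 1.63% in macrophage-like and 4.09% in Leydig-like cells to the 17.6% given for germ-like cells. Species, breed, age and the gene annotation used for counting differ together between these groups and cannot be told apart, nor can germ cell stage in the germ-like contrast. The same holds for the makeup of the class in the mesenchymal contrast. The 5 were PDGFA in germ-like and mesenchymal cells, PDGFB in endothelial- and lymphocyte-like cells, and PDGFRB in Sertoli-like cells. For the calls shared by the species, PDGFRB is the exception, since no cattle contrast of PDGFRB passed the test in any class. In pig the contrasts of Sertoli-like, germ-like and mesenchymal cells passed, with 23.3%, 50% and 13.9% of all genes called. Within the mesenchymal class, those of pig stromal-like and stromal/myoid-like cells passed too, with 9.12% and 9.06% of all genes called.

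The other genes of the pathway were taken from a list of 27, all in both gene tables, of which 24 were tested in cattle and 27 in pig. In the Sertoli-like contrast 3 were higher and 3 lower in cattle (median -0.08 log2 units, against 0.17 over all genes tested), and 8 were higher and 3 lower in pig (median 0.27, against 0.18). In the mesenchymal contrast 6 were higher and 5 lower in cattle (median -0.20, against -0.04), and 8 were higher and none lower in pig (median 0.56, against 0.11). Those called were 25% of the genes tested in the Sertoli-like contrast of cattle (30.6% over all genes) and 40.7% in pig (23.3%), and 45.8% in the mesenchymal contrast of cattle (24.7%) and 29.6% in pig (13.9%). In the endothelial-like contrast 1 was higher and 1 lower in cattle (median -0.15, against -0.63). In pig the same contrast had 7 higher and 5 lower (median 0.41, against 0.03). These were 8.33% of the genes tested in cattle (6% over all genes) and 44.4% in pig (16.5%). In cattle 6 of the genes had no UMI in the endothelial-like cells, and with these at their bound the median was 0.75. The cattle counts depended on single animals. Without cattle 2 the genes called numbered 3 in the Sertoli-like, 1 in the endothelial-like and 3 in the mesenchymal contrast, and without cattle 3 they numbered 3, 0 and 4. In pig the mesenchymal count was 5 without pig 2, and 2 when the mesenchymal cells were set against the sum of all other named cells.

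**Figure D5:**
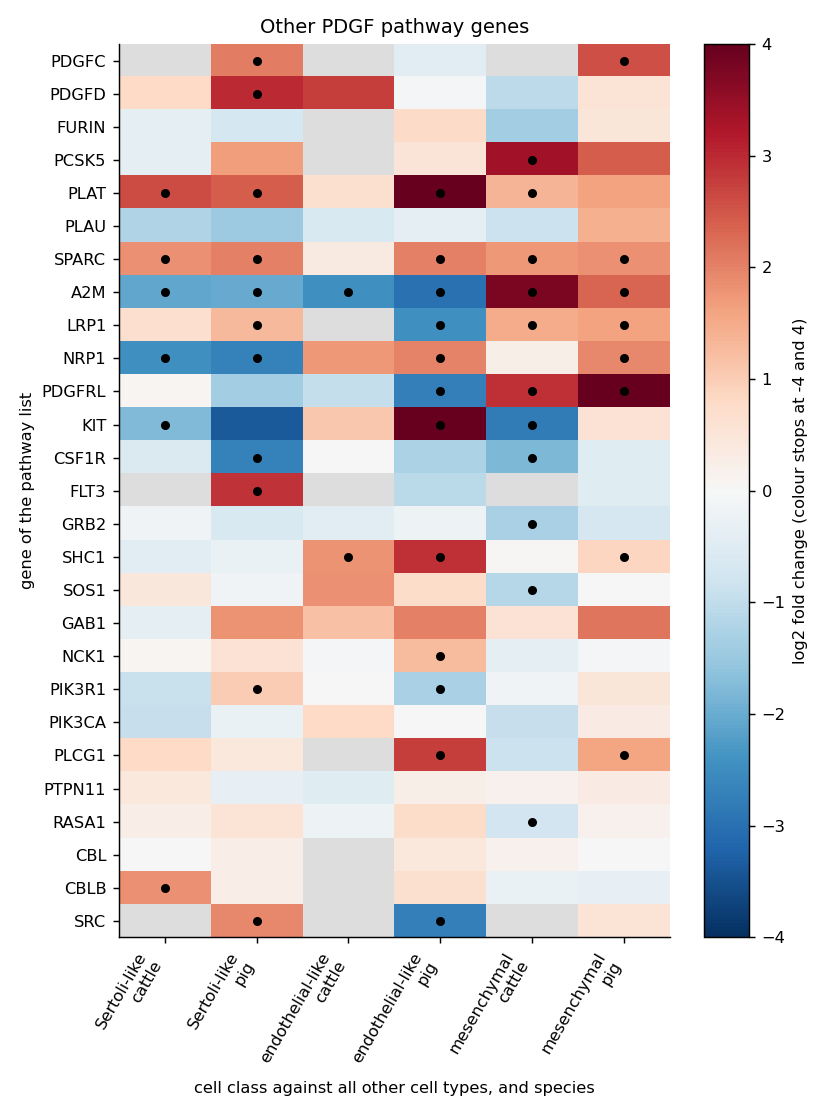
Log2 fold change of 27 other PDGF pathway genes (rows) in Sertoli-like, endothelial-like and mesenchymal cells of each species (columns), with colours that stop at -4 and 4. Dots mark an adjusted p under 0.05, and grey squares mark 9 not tested and 6 without a UMI in the class. SPARC is called higher in Sertoli-like and mesenchymal cells of both species, and A2M lower in Sertoli-like and endothelial-like cells and higher in mesenchymal cells of both.

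The remaining ligands of the family were PDGFC and PDGFD, which are secreted with a domain that proteases must remove. In pig Sertoli-like cells PDGFD was at 150, 141 and 125 CPM in pigs 1, 2 and 3 (2.98 log2 units above other types, SE 0.38, adjusted p = 5.85e-07). PDGFC was at 6.44, 15.9 and 20.7 CPM there (2.04 log2 units, SE 0.51, adjusted p = 0.0033), and it was also higher in pig mesenchymal cells (2.57 log2 units, SE 0.53, adjusted p = 7.40e-04). Pig Sertoli-like cells thus carried PDGFA, PDGFC and PDGFD above the mean of other types, with no background level from barcodes of at most 50 UMIs to set beside them. In cattle PDGFC was too sparse to be tested, and the Sertoli-like contrast of PDGFD was 0.80 log2 units (SE 0.42, adjusted p = 0.214).

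Of the genes for proteins that process or bind the ligands, A2M, LRP1, NRP1, PDGFRL, PLAT and SPARC were called the same way in both species in at least 1 of these contrasts, and FURIN, PCSK5 and PLAU in none. PCSK5 was called higher in mesenchymal cells of cattle alone. These contrasts called 6% to 30.6% of all genes in cattle and 13.9% to 23.3% in pig. The share of all genes called the same way in both species was not taken. PLAT, a protease that activates PDGFC, was higher in Sertoli-like cells (2.61 log2 units in cattle and 2.42 in pig). SPARC, a matrix protein that binds PDGF, was higher in Sertoli-like cells (1.84 and 2) and in mesenchymal cells (1.74 and 1.83). A2M, an inhibitor that traps proteases and growth factors, was lower in Sertoli-like cells (-2.07 and -2.01 log2 units) and in endothelial-like cells (-2.45 and -2.99), and higher in mesenchymal cells (3.77 and 2.31). PDGFRL, a receptor-like protein without a kinase, was 2.92 log2 units higher in cattle mesenchymal cells and 3.97 in those of pig. LRP1, an endocytic receptor that also binds PDGFRB, was 1.49 and 1.61 log2 units higher there. NRP1, a coreceptor, was lower in Sertoli-like cells (-2.47 and -2.70). Of the signalling proteins, the adaptor SHC1 was higher in endothelial-like cells in both species (1.79 and 2.91 log2 units). The adjusted p of these values lay between 3.69e-14 and 0.0395.

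Genes were ranked by how closely their level followed each member across 27 cattle and 24 pig sums of cells, using the lower Pearson's r of the 2 species over 7344 shared symbols. The sums share libraries and cell types, and r is given as a description. PDGFA was followed most closely by CHGA (r 0.81), ELOVL2 (0.76), FHOD3 (0.75), CAMSAP3 (0.74) and MRPS6 (0.71). PDGFB was followed by ARHGAP25 (0.73), LPAR6 (0.72), MFNG (0.71), SH2D3C (0.69) and MSN (0.67). PDGFRA was followed by SPON1 (0.88), ANGPT4 (0.83), PCDH18 (0.83), CCDC80 (0.83) and EDNRA (0.83). PDGFRB was followed less closely, by EBF1 (0.70), ARNT (0.57), FOSL2 (0.57), MTM1 (0.53) and PLOD1 (0.52), and its cattle values rest on 82 UMIs. The pig values of PDGFRA rest on 79 UMIs.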

How the data were processed

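Droplet scRNA-seq libraries of 3 cattle and 3 pigs were analysed, and a mouse library was left aside. The authors demultiplexed and aligned the reads with Cell Ranger 2.1.0, per the submitters' processing notes, to ARS-UCD1.2 (cattle) and Sscrofa11.1 (pig), and deposited raw UMI counts per gene and barcode. The pig matrix headers name software version 3.0.2. Per the methods, libraries were pooled for equal depth on 1 lane, and low-quality cells and doublets were excluded per library before the authors' own clustering, with no cutoff given. The deposited cattle matrices hold every barcode, and the pig matrices hold 6220, 22920 and 8808 barcodes.

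Barcodes that reached the 99th percentile of the 3000 deepest divided by 10, with at least 200 genes, were kept as cells, and the highest Scrublet scores were left out as doublets (0.8% per 1000 cells). Cells were clustered per species with Scanpy 1.11.5 (2000 variable genes, 30 components, 15 neighbours, Leiden resolution 1), without the PDGF pathway genes. A cluster was named by at least 3 markers detected in 5% of its cells and 2-fold above the median cluster. Cells without a name (216 cattle, 220 pig) entered no test. Raw counts were summed per animal and cell type (at least 10 cells) and fitted with edgeR 4.0.16 (TMM, quasi-likelihood F test, genes with at least 10 counts, R 4.3.3), each class against the mean of all others, with Benjamini-Hochberg adjustment at 0.05 over 14166 cattle, 15193 pig or, for differences between species, 12751 shared genes. The mean of all others was taken over fitted log2 levels, so that types with few counts lower it. Differences between species were fitted on both species together, against the types named in both, with mesenchymal types sharing a single weight in the reference. The TMM factors entered the fits and not the CPM, so that fold changes and CPM can differ. Standard errors are the fold change over the square root of F. On simulated counts false calls exceeded the nominal share. Intervals and floors (3 counts) cover counting error only. The cell type sums of each animal share a library and are thereby paired. A fit with animal as block was an alternative, beside DESeq2 1.42.0, other normalizations, filters, cell rules, resolutions and leaving out each animal. The filterByExpr gene filter and the block for steps between neighbouring cell types were chosen after seeing the data.

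The members, lists and markers were chosen with earlier results of these data known. Named beside the members were PDGFC, PDGFD, pathway genes called the same way in both species, and the 5 genes most like each member by the correlation of log2(CPM + 10) among symbols with 100 UMIs or more in each species. Clusters singled out were chosen after their values were seen.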

Additional observations from a re-analysis of the deposited data

Results flagged for a closer look

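For 5 differences between a cell class and all others, the size of the difference itself differed between pig and cattle. The test was edgeR's quasi-likelihood test on both species, against the types named in both. For PDGFB in endothelial-like cells the difference was 3.38 log2 units larger in pig (adjusted p = 7.09e-04). For PDGFA in germ-like cells it was -2.86 log2 units in pig relative to cattle (adjusted p = 0.00224), and for PDGFA in mesenchymal cells it was 3.14 log2 units larger in pig (adjusted p = 0.019). For PDGFB in lymphocyte-like cells it was -3.92 log2 units in pig relative to cattle (adjusted p = 0.0235). For PDGFRB in Sertoli-like cells it was -3.07 log2 units (adjusted p = 0.0417). The difference of PDGFA in germ-like cells passed the threshold without any one animal, and each of the others lost its call without at least 1 animal. The endothelial-like and mesenchymal values of pig rest on 2 animals, and those of PDGFRB in cattle on 82 UMIs. Groups of 3 animals were too small for a check for single animals that stand apart.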

How the results depend on the processing

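Of the called contrasts, PDGFA in Sertoli-like cells, PDGFB in pig endothelial-like cells, PDGFRA in cattle mesenchymal cells and PDGFRB in pig mesenchymal cells kept their direction and passed the threshold under every alternative run. Cattle PDGFB in endothelial-like cells was 1.94 log2 units (adjusted p = 0.0779) against the sum of all other named cells and 1.43 to 2.71 with 1 animal left out. Pig PDGFRA in mesenchymal cells was 1.44 (adjusted p = 1) and pig PDGFB in stromal-like cells -1.09 with a minimum of 500 UMIs. With that minimum the pig mesenchymal class also held the pericyte-like cells. The species difference of PDGFA in Sertoli-like cells was 0.10 with DESeq2 size factors, 0.015 by DESeq2's Wald test, 0.065 without doublet removal and -0.96 to 0.60 with 1 animal left out. That of PDGFRA in mesenchymal cells was 0.075 with library size alone, 0.22 with DESeq2 size factors, 0.25 by the Wald test, 0.68 without doublet removal, 0.21 and 0.14 at resolutions 0.5 and 2, and -0.37 to 1.06 with 1 animal left out. That of PDGFB in endothelial-like cells was 2.90 to 4.12, and cattle PDGFRB in mesenchymal cells -0.43 to 0.91, with 1 animal left out. The species difference of PDGFRB in mesenchymal cells, not called at 2.32, was 3.36 by the Wald test (adjusted p = 0.00224), 4.51 with a minimum of 500 UMIs (adjusted p = 3.42e-04), and 2.07 to 3.78 with 1 animal left out. With 1 animal left out, genes past the threshold numbered 2134 to 5033 (4341 with all animals) for cattle and 1792 to 2712 (3540) for pig Sertoli-like cells, 346 to 920 (850) and 1497 to 2356 (2505) for endothelial-like cells, and 1087 to 4175 (3499) and 1271 to 1737 (2110) for mesenchymal cells. Contrasts called for the 4 genes numbered 12 to 25 (22) in cattle and 10 to 14 (15) in pig. With all animals, the share of all genes called in these contrasts ran from 6% to 58% in cattle and from 3.24% to 50% in pig. Pathway genes called numbered 3 to 9 in Sertoli-like, 0 to 2 in endothelial-like and 3 to 11 in mesenchymal cells of cattle, and 5 to 8 in mesenchymal cells of pig. The pig endothelial-like count was 1524 with a minimum of 500 UMIs, the pig mesenchymal count was 361, with 2 pathway genes, against the sum of all others, and the cattle endothelial-like pathway count was 1 without doublet removal. The causes were not tested. With the animal as block, since sums of an animal are paired, PDGFA in Sertoli-like cells was 3.75 in cattle and 3.34 in pig. No call of the 4 genes was lost, and 26 contrasts passed in cattle and 17 in pig, beside 22 and 15 without the block. The contrasts gained, beside those already given, were PDGFA in cattle stromal-like (-1.58, adjusted p = 0.0167) and pig stromal/myoid-like cells (1.16, adjusted p = 0.0486), and PDGFRA in cattle endothelial-like (-1.47, adjusted p = 0.00185) and macrophage-like cells (-0.92, adjusted p = 0.00836). The steps gained likewise were PDGFA from cattle germ- to endothelial-like (2.15, adjusted p = 0.0362) and pig Sertoli- to stromal/myoid-like cells (1.94, adjusted p = 1.97e-04), cattle PDGFRA from lymphocyte- to germ-like (0.86, adjusted p = 0.0180) and pig PDGFRB from lymphocyte- to endothelial-like cells (1.97, adjusted p = 0.0159). For the lymphocyte- to germ-like step of PDGFRA the mean levels were 28.4 and 28.0 CPM, without the TMM factors of the fit. The block changed no other call. DESeq2 gave cattle PDGFRB in mesenchymal cells no adjusted p. Where an arm kept 1 animal, it was assumed to vary like the others. The sparse genes (81 pig PDGFRA and 85 cattle PDGFRB UMIs) limit what could be resolved.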

Other observations

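Within a named type the members varied among clusters, most of which came mainly from 1 library. The 5 germ-like clusters of pig held PDGFA at 1.5 to 6.4 CPM in 4 of them and at 23.5 CPM in 1 cluster of 234 cells. The PDGFB level was 97.3 and 82.7 CPM in the larger pig endothelial-like clusters, of 347 and 301 cells, and 16 CPM in a cluster of 31 cells that held PDGFA at 64.0 CPM. The pig stromal-like clusters held PDGFRB at 64.2 and 97.8 CPM and PDGFB at 4.7 and 22.1 CPM. Cells that received no name also held members. A cattle cluster of 64 such cells held PDGFRA at 907 CPM, and a pig cluster of 127 such cells, 98.4% of them from pig 2, held PDGFA at 61.8 CPM.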
